A study of Homo sapiens with 12 samples.

Results

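FKBP immunophilins are proteins with a domain that turns peptide bonds before proline and that binds the drugs FK506, rapamycin and everolimus. The 10 genes described here are FKBP1A, FKBP2, FKBP3, FKBP4, FKBP5, FKBP7, FKBP8, FKBP9, FKBP10 and FKBP14. They were taken by symbol, as every probe of the deposited value table that the platform's annotation pairs with 1 of these symbols alone, whatever its values. This gave 18 probes of 10 genes among 47230 probes in the table, of which 30113 (20046 genes) carried 1 symbol. Of the 18 probes, 16 (9 genes) lay above the background floor on at least 3 of 12 arrays and were tested together with all 15583 such probes. FKBP7 had no probe above the floor on any array.

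The study treated 2 established human cell lines of triple-negative breast cancer, a class that lacks oestrogen and progesterone receptors and amplified HER2. The groups were MDA-MB-231 cells in 10 uM everolimus, MDA-MB-231 cells in the vehicle DMSO, BT-549 cells in 10 uM everolimus and BT-549 cells in DMSO, each for 48 h and each with 3 arrays. Both lines are unmodified in the labels, and everolimus is an allosteric inhibitor of the growth kinase mTOR. Nothing in the labels tells separate cultures from repeat readings of one, so the tests reflect spread among arrays that may be technical.

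Everolimus acts by first binding FKBP12, the product of FKBP1A, and the pair then docks on mTOR complex 1. The other family members work in different parts of the cell. FKBP4 and FKBP5 are co-chaperones of HSP90 that act on steroid receptors. FKBP3 is nuclear, FKBP8 sits in the outer mitochondrial membrane, and FKBP2, FKBP7, FKBP9, FKBP10 and FKBP14 fold proteins in the endoplasmic reticulum, where FKBP10 and FKBP14 serve collagen.

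Signals are log2 values of fluorescence after the authors' normalization, the error given with a group mean is the SD of its arrays (n = 3), and a probe was called at a limma adjusted p (Benjamini-Hochberg over all 15583 probes) under 0.05. Signals of different probes cannot be set against each other, so levels are compared only within a probe. Where probes of 1 gene are compared, it is by their differences between groups. The deposited values hold a background peak at 6.55, which the main fit did not subtract, so differences of dim probes are probably compressed. Each signal is an average over the culture, so fewer cells with the RNA and less RNA per cell cannot be told apart. The median standard error of a log2 difference between 2 groups was 0.15. In each group the replicate 1 array lay furthest from the group mean, with an SD of deviations over probes of 0.223 to 0.379, against 0.083 to 0.221 on the other 8 arrays. Of the markers of the lines, ESR1 and CDH1 were above the floor on 0 arrays and PGR on 1, ERBB2 was above it on all 12 arrays with 1 of 3 probes and on 0 with the other 2, and the mesenchymal marker VIM read 12.56 to 14.39 over its 2 probes. Of the epithelial markers, CDH1 was thus at background in both lines, while KRT8 differed between them. KRT8 read 6.54 to 6.77 in BT-549 and 8.48 to 9.91 in MDA-MB-231, and it was above the floor on 7 of 12 arrays. The brighter KRT18 probe was above the floor on 7 arrays, and each of 3 EPCAM probes on 8, with EPCAM reaching 9.15 in MDA-MB-231. Of the blood and endothelial markers, PTPRC was above the floor on at most 1 array and PECAM1 on 2.

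RefSeq (GRCh38.p14) gave a promoter window for 6 of the 10 genes. The 250 bases before the transcript start are shown for 3 genes of which at least 1 probe fell in BT-549 under everolimus (FKBP1A, FKBP2 and FKBP3) and for FKBP5, which differed between the lines. They read 5′ to 3′ on the gene's strand, and capitals mark matches, on either strand, to the GC box GGGCGG, the CCAAT box CCAAT, the E-box CACGTG or the TATA box TATAAA.
FKBP1A, chr20:1393055-1393304, minus strand: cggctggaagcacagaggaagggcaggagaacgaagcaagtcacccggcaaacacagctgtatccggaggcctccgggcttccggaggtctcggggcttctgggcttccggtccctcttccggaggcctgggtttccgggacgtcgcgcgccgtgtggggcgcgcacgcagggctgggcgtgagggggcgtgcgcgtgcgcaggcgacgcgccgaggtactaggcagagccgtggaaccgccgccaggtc
FKBP2, chr11:64240845-64241094, plus strand, 1 of 5 windows: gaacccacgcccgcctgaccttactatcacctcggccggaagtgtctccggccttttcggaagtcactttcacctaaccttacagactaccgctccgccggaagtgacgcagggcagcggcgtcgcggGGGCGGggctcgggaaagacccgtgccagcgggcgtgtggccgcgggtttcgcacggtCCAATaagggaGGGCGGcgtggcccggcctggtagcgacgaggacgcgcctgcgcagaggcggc
FKBP3, chr14:45134482-45134731, minus strand: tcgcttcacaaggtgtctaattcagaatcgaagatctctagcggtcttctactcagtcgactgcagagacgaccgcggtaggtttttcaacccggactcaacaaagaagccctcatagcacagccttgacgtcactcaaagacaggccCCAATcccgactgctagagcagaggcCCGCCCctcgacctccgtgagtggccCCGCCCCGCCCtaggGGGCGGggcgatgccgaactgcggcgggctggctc
FKBP5, chr6:35728584-35728833, minus strand, 1 of 2 windows: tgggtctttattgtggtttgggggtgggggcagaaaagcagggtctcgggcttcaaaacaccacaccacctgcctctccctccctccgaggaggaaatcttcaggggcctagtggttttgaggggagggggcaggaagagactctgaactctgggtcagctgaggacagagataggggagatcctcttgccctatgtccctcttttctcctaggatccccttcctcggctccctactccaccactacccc

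FKBP3 held 4 matches to the GC box, some of which overlap, and 1 to the CCAAT box. FKBP2 held 2 and 1. FKBP1A and FKBP5 held no match to any of the 4 motifs. For FKBP2 and FKBP5, which have several windows, the one shown lies at the outermost start of the gene. Whether the RNA read by their probes starts there was not analysed. The GC box occurred in 42.6% of all 35116 windows of 250 bases, the CCAAT box in 32%, the E-box in 6.34% and the TATA box in 10.7%. The share of G and C was 70.8% for FKBP1A, 68.8% for FKBP2, 60.8% for FKBP3 and 57.6% for FKBP5, against a median of 58% over all windows. FKBP1A, FKBP2 and FKBP3 thus had no 1 of these motifs in common in the windows shown.

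In BT-549, 6 of the 16 probes, from 4 genes, were called lower with everolimus and none was called higher. These were 2 of 4 FKBP1A probes, the brightest of 3 FKBP2 probes, both FKBP3 probes and the dimmer of 2 FKBP14 probes. Of all 15583 probes, 17.0% were called in BT-549, 8.57% lower and 8.47% higher. The median log2 difference was -0.23 over the 16 probes and 0.01 over all probes. In MDA-MB-231, 0 of the 16 probes were called by limma, 3 had an unadjusted p under 0.05 (against 10.5% of all probes), and 0.103% of all probes were called, so a count of 0 lies near the background there. Leaving out the 4 replicate 1 arrays gave 8 called probes in BT-549, 7 lower and 1 higher, with 38.1% of all probes called, and again 0 in MDA-MB-231, with 6.26%. In BT-549 the 2 groups did not overlap for 8 of the 16 probes, against 33.2% of all probes.

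**Figure D1:**
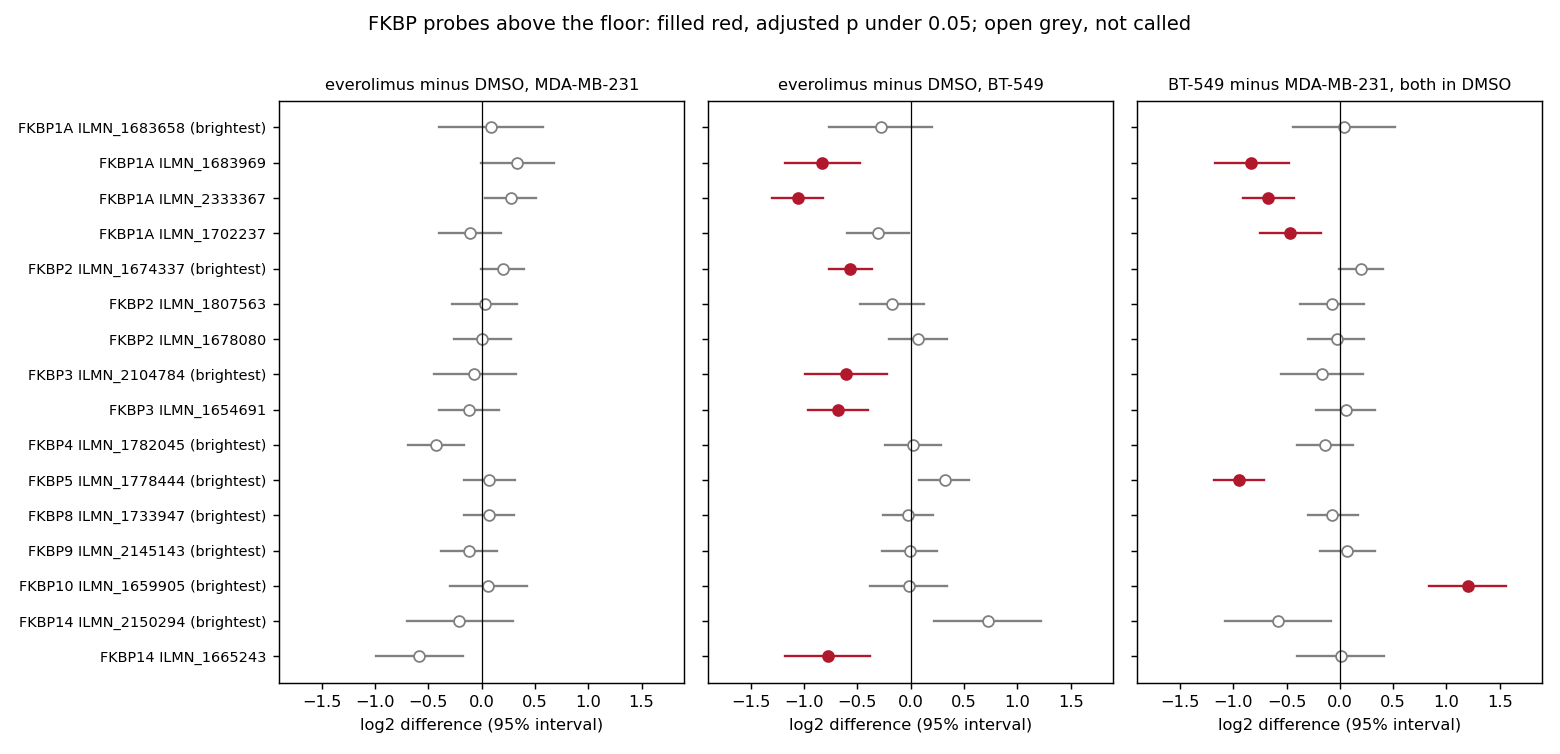
Log2 differences (horizontal axis) of the 16 FKBP probes above the floor, everolimus minus DMSO in each line, and BT-549 minus MDA-MB-231 under DMSO, with 95% intervals from limma. Filled red points are called at an adjusted p under 0.05: 0 probes in MDA-MB-231, 6 in BT-549, all lower, and 5 between the lines, 4 lower and 1 higher in BT-549.

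FKBP1A encodes FKBP12, the protein through which everolimus reaches mTOR, and it was read by 4 probes. The brightest, ILMN_1683658, is annotated to transcript NM_000801 and the other 3 to NM_054014. The genome holds near-identical copies of FKBP1A, so its probes may read RNA of more than 1 gene. The pseudogene FKBP1AP1 has a probe of its own, which read 6.79 to 7.22 over the 12 arrays.

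The brightest probe showed no called difference. In BT-549 it read 10.19, 10.45 and 10.75 on the everolimus arrays, against 10.29, 10.79 and 11.16 on the DMSO arrays. In MDA-MB-231 it read 11.01, 10.86 and 10.51 on the everolimus arrays, against 10.56, 10.79 and 10.77 on the DMSO arrays. The groups overlapped in both lines. The log2 differences were -0.28 in BT-549 (95% interval -0.77 to 0.20, adjusted p = 0.413) and 0.09 in MDA-MB-231 (-0.40 to 0.57, adjusted p = 0.968), intervals that leave room for a fall or rise of moderate size.

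ILMN_2333367, a probe of NM_054014, had the lowest adjusted p of the family under everolimus. It read 7.80, 7.79 and 7.53 on the BT-549 everolimus arrays, against 8.69, 8.79 and 8.81 on the BT-549 DMSO arrays. Every everolimus array lay well below every DMSO array. The signal fell by 1.06 on the log2 scale, 2.08-fold (95% interval -1.30 to -0.82, adjusted p = 0.00052), and stayed called in all 12 fits that left out 1 array. In MDA-MB-231 it read 9.80, 9.78 and 9.53 on the everolimus arrays, against 9.35, 9.49 and 9.47 on the DMSO arrays. There the everolimus arrays all lay above the DMSO arrays by a small margin, and the difference of 0.27 missed the threshold (adjusted p = 0.408).

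ILMN_1683969, a further probe of NM_054014, gave the same order of groups in BT-549. It read 8.40, 8.21 and 7.88 on the everolimus arrays, against 9.07, 9.02 and 8.89 on the DMSO arrays, with no overlap. The fall was 1.78-fold (log2 difference -0.83, 95% interval -1.18 to -0.48, adjusted p = 0.00698). In MDA-MB-231 it read 10.25, 10.21 and 10.00 on the everolimus arrays, against 9.93, 9.53 and 10.00 on the DMSO arrays. These groups touched at 1 value, and the difference of 0.33 was not called (adjusted p = 0.502). The dimmest FKBP1A probe, ILMN_1702237, was not called in either line, with log2 differences of -0.31 in BT-549 (adjusted p = 0.126) and -0.11 in MDA-MB-231 (adjusted p = 0.888). Without BT-549 DMSO replicate 1 it was called in BT-549 (log2 difference -0.44, adjusted p = 0.0404).

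The probes of FKBP1A did not respond alike in BT-549. A test of the brightest probe minus each other probe on every array, chosen after the values were seen, was run on all 3819 such pairs of probes of 1 gene and called 18.4% of them in BT-549 and 0.157% in MDA-MB-231. For FKBP1A the brightest probe's log2 difference was 0.77 above that of ILMN_2333367 (95% interval 0.31 to 1.24, adjusted p = 0.0301). Against ILMN_1683969 the gap was 0.55 (-0.09 to 1.18, adjusted p = 0.212) and against ILMN_1702237 it was 0.03 (adjusted p = 0.937). No FKBP1A pair was called in MDA-MB-231, where the gaps ran from -0.25 to 0.20.

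**Figure D2:**
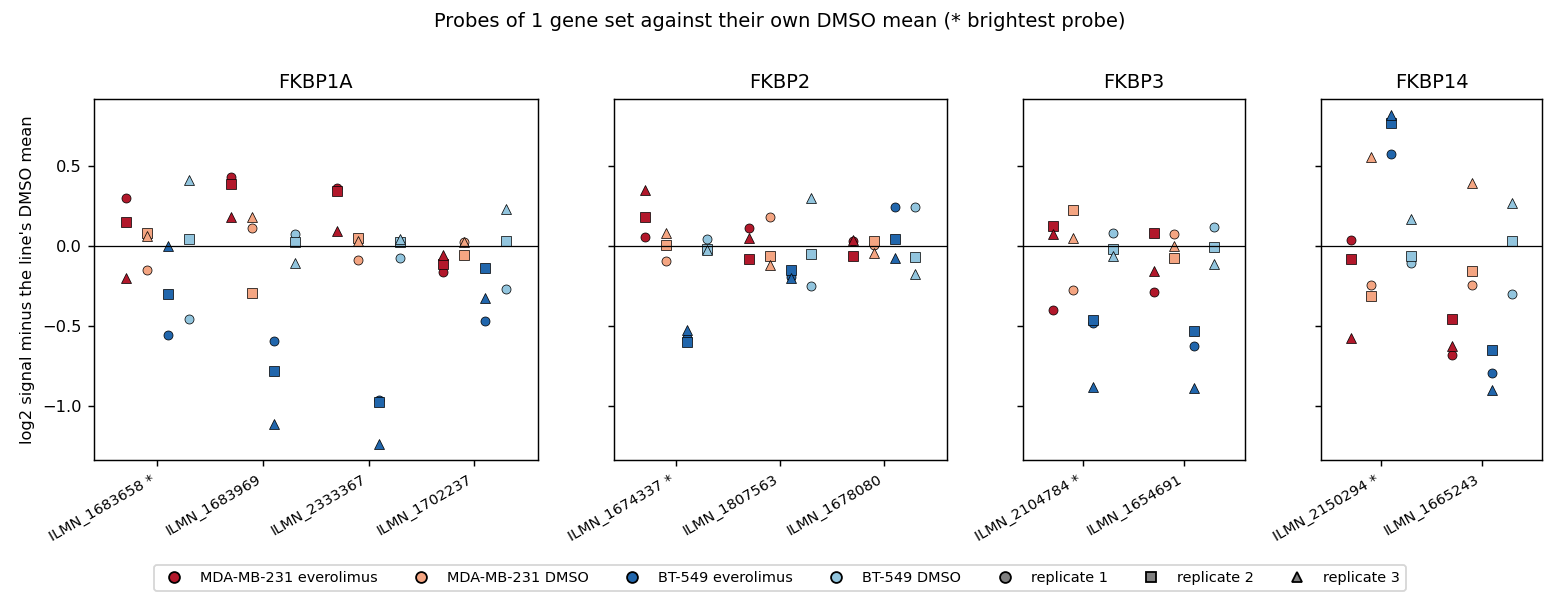
Signals of each probe of FKBP1A, FKBP2, FKBP3 and FKBP14 on every array, as log2 values minus the mean of the same line's DMSO arrays. In BT-549 the FKBP1A probes ILMN_2333367 and ILMN_1683969 lie below 0 on the everolimus arrays while ILMN_1683658 overlaps its DMSO arrays, and the FKBP14 probes lie on opposite sides of 0.

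FKBP3 encodes FKBP25, a nuclear member that binds nucleic acids, and both of its probes fell in BT-549. The brighter probe, ILMN_2104784, read 9.87, 9.89 and 9.47 on the everolimus arrays, against 10.43, 10.33 and 10.29 on the DMSO arrays. The dimmer probe, ILMN_1654691, read 7.55, 7.64 and 7.29 on the everolimus arrays, against 8.29, 8.17 and 8.06 on the DMSO arrays. Neither probe's groups overlapped. The falls were 1.52-fold for ILMN_2104784 (log2 difference -0.61, adjusted p = 0.0371) and 1.60-fold for ILMN_1654691 (-0.68, adjusted p = 0.00618), and the 2 probes' differences were not told apart (gap 0.07, 95% interval -0.26 to 0.41, adjusted p = 0.779).

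The dimmer FKBP3 probe stayed called in all 12 fits that left out 1 array. The brighter probe stayed called in 6 of 12, and lost its call without MDA-MB-231 DMSO replicate 3, without any 1 of the 3 BT-549 DMSO arrays, or without BT-549 everolimus replicate 2 or 3 (log2 difference -0.68 to -0.47 over the 12 fits, adjusted p up to 0.147). In MDA-MB-231 the brighter probe read 10.12, 10.64 and 10.59 on the everolimus arrays, against 10.24, 10.74 and 10.57 on the DMSO arrays. Both probes' groups overlapped there, with log2 differences of -0.07 for ILMN_2104784 and -0.12 for ILMN_1654691 (adjusted p = 0.972 and 0.86).

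FKBP5 and FKBP4 encode FKBP51 and FKBP52, HSP90 co-chaperones known for opposite effects on the glucocorticoid receptor, and FKBP5 is itself a classical target of that receptor. FKBP5 (ILMN_1778444) read 8.15, 8.07 and 7.94 on the BT-549 everolimus arrays, against 7.84, 7.59 and 7.78 on the DMSO arrays. All 3 everolimus arrays lay above all 3 DMSO arrays, yet the log2 difference of 0.32 missed the threshold (95% interval 0.08 to 0.55, adjusted p = 0.0677). With arrays weighted by their estimated quality it was called (0.39, adjusted p = 0.00229), as were 50.7% of all probes. That fit rests mostly on 1 DMSO array of BT-549, replicate 2, the lowest at 7.59. Its weight was 7, against 0.519 and 0.723 for DMSO replicates 1 and 3. In MDA-MB-231 FKBP5 read 8.78, 8.67 and 8.81 on the everolimus arrays, against 8.56, 8.65 and 8.84 on the DMSO arrays, which overlapped (log2 difference 0.07, adjusted p = 0.932).

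FKBP4 (ILMN_1782045) had groups apart in MDA-MB-231 only, and it was not called there or in BT-549. In MDA-MB-231 it read 8.31, 8.34 and 8.14 on the everolimus arrays, against 8.64, 8.79 and 8.65 on the DMSO arrays. Every everolimus array was the lower, but the log2 difference of -0.43 was not called (95% interval -0.69 to -0.17, adjusted p = 0.193). Groups failed to overlap for 3 of the 16 FKBP probes in MDA-MB-231, against 18.2% of all probes. In BT-549 FKBP4 read 8.38, 8.52 and 8.83 on the everolimus arrays, against 8.61, 8.53 and 8.53 on the DMSO arrays, with overlap and a log2 difference of 0.02 (adjusted p = 0.937). The difference between the lines' effects, 0.45, was not called on all arrays (adjusted p = 0.211). It was called without BT-549 everolimus replicate 1 (0.55, adjusted p = 0.0488), a fit that called 10.8% of all probes against 0.770%.

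Among the members of the endoplasmic reticulum, FKBP2 fell in BT-549 by its brightest probe. FKBP2 encodes FKBP13, a small soluble member of that compartment. ILMN_1674337 read 9.38, 9.36 and 9.43 on the BT-549 everolimus arrays, against 10.00, 9.94 and 9.93 on the DMSO arrays. The 2 groups were tight and well apart, a 1.48-fold fall (log2 difference -0.57, 95% interval -0.77 to -0.36, adjusted p = 0.00373) that stayed called in all 12 fits without 1 array. In MDA-MB-231 it read 9.82, 9.94 and 10.11 on the everolimus arrays, against 9.67, 9.77 and 9.84 on the DMSO arrays, which overlapped (0.20, adjusted p = 0.514).

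The 2 dim FKBP2 probes lay near the floor of 6.77 and were not called in either line. In BT-549 ILMN_1807563 differed by -0.18 (adjusted p = 0.406) and ILMN_1678080 by 0.07 (adjusted p = 0.746). The brightest probe's difference was lower than that of ILMN_1678080 by more than the spread (gap -0.64, adjusted p = 0.0115). Against ILMN_1807563 the gap of -0.39 was not called (adjusted p = 0.134). ILMN_1678080 is annotated to transcript NM_057092, and the other FKBP2 probes to NM_004470. A dim probe holds a larger share of background, which compresses its differences. Whether this or the transcript read accounts for the gap was not tested.

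FKBP14, which encodes FKBP22 and is mutated in a form of Ehlers-Danlos syndrome, had 2 probes that went apart in BT-549. The dimmer, ILMN_1665243, read 7.41, 7.55 and 7.30 on the BT-549 everolimus arrays, against 7.90, 8.23 and 8.47 on the DMSO arrays. The brighter, ILMN_2150294, read 11.35, 11.54 and 11.59 on the everolimus arrays, against 10.67, 10.71 and 10.94 on the DMSO arrays. Neither probe's groups overlapped, with everolimus lower by the dimmer probe and higher by the brighter. The dimmer probe fell 1.72-fold (log2 difference -0.78, adjusted p = 0.0167), while the brighter probe's difference of 0.72 narrowly missed the threshold (95% interval 0.22 to 1.22, adjusted p = 0.0506).

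The gap between the 2 FKBP14 probes was 1.50 in BT-549 (95% interval 1.12 to 1.88, adjusted p = 0.000795), the widest of the 7 FKBP probe pairs there. The dimmer probe stayed called in 9 of 12 fits that left out 1 array, and not without BT-549 DMSO replicate 2 or 3 or BT-549 everolimus replicate 3 (adjusted p up to 0.0686). The brighter probe was called in 4 of 12, without MDA-MB-231 DMSO replicate 2 or 3, MDA-MB-231 everolimus replicate 3 or BT-549 everolimus replicate 1 (adjusted p down to 0.0175). It was also called higher in 6 of 11 other settings, which called 10.8% to 50.7% of all probes. No direction can be given for FKBP14 as a gene in BT-549, as its probes disagree. Both probes are annotated to NM_017946, and which exon each reads was not analysed here.

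In MDA-MB-231 the dimmer FKBP14 probe read 7.51, 7.74 and 7.57 on the everolimus arrays, against 7.95, 8.04 and 8.59 on the DMSO arrays. The everolimus arrays were all lower, but the log2 difference of -0.59 was not called (adjusted p = 0.261). The brighter probe read 11.39, 11.27 and 10.78 on the everolimus arrays, against 11.11, 11.04 and 11.91 on the DMSO arrays, with overlap (-0.21, adjusted p = 0.871). The gap of 0.38 between the probes was not called there (adjusted p = 0.584).

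FKBP10 encodes FKBP65, a collagen chaperone mutated in a form of brittle bone disease, and it read higher in BT-549 than in MDA-MB-231. ILMN_1659905 read 8.20, 7.45 and 7.73 on the BT-549 everolimus arrays, against 7.95, 7.80 and 7.70 on the BT-549 DMSO arrays. In MDA-MB-231 it read 6.60, 6.64 and 6.78 on the everolimus arrays, against 6.51, 6.68 and 6.66 on the DMSO arrays. It was above the floor on all 6 BT-549 arrays and on 1 of 6 MDA-MB-231 arrays. The everolimus difference in BT-549 was -0.02 (95% interval -0.38 to 0.34, adjusted p = 0.947).

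FKBP9 and FKBP7 were at or near background. ILMN_2145143, the brighter of 2 FKBP9 probes, was above the floor on 4 of 12 arrays and read 6.49 to 6.92, while ILMN_1666121 was above it on 0. The tested FKBP9 probe differed by -0.01 in BT-549 (adjusted p = 0.968) and -0.12 in MDA-MB-231 (adjusted p = 0.839). The single FKBP7 probe, ILMN_1717737, read 6.41 to 6.72 and was not tested. FKBP8, the mitochondrial member that holds BCL2 at the outer membrane, was above the floor on all 12 arrays (ILMN_1733947) but low, at 6.79 to 7.23. It differed by -0.03 in BT-549 (95% interval -0.26 to 0.21, adjusted p = 0.9) and 0.07 in MDA-MB-231 (-0.17 to 0.30, adjusted p = 0.935).

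**Figure D3:**
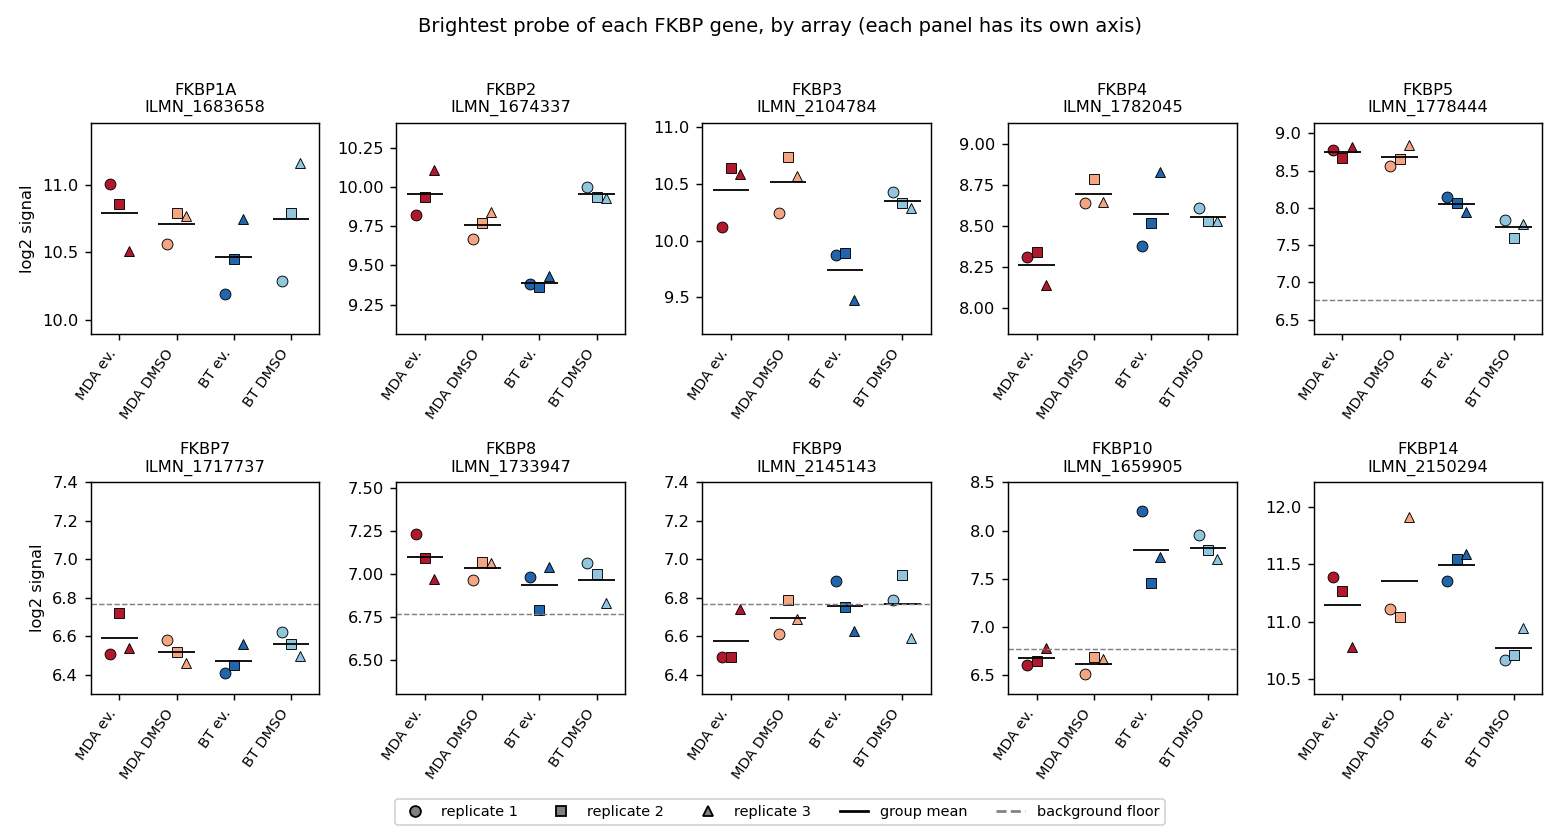
Log2 signal (vertical axis) of the brightest probe of each of the 10 FKBP genes on all 12 arrays, with the everolimus arrays of each line left of its DMSO arrays and the background floor of 6.77 as a line. FKBP7 lies below the floor throughout, FKBP10 lies above it in BT-549, and FKBP5 is higher in MDA-MB-231 than in BT-549.

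Whether the lines differ before treatment was asked in the DMSO arrays. Between BT-549 and MDA-MB-231, 5 of the 16 probes were called, 1 higher and 4 lower in BT-549, against 28.6% of all probes (14.2% higher and 14.4% lower), so the count is close to the background. The groups did not overlap for 8 of the 16, against 46.4% of all probes. FKBP5 was lower in BT-549, at 7.74 ± 0.13 (SD, n = 3) against 8.68 ± 0.14 in MDA-MB-231, a 1.93-fold difference (log2 difference -0.95, limma adjusted p = 9.49e-05). FKBP10 averaged 7.82 ± 0.13 in BT-549 and 6.62 ± 0.09 in MDA-MB-231, where no DMSO array reached the floor, which makes it at least 2.07-fold higher in BT-549. FKBP10 passed the floor through its BT-549 arrays, so a higher signal there follows from its being tested, and its call, the 1 higher probe of the 5, supports nothing further.

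The 3 probes of FKBP1A annotated to NM_054014 were all lower in BT-549 under DMSO. ILMN_1683969 averaged 8.99 ± 0.09 in BT-549 and 9.82 ± 0.25 in MDA-MB-231 (log2 difference -0.83, limma adjusted p = 0.00269). ILMN_2333367 averaged 8.76 ± 0.06 in BT-549 and 9.44 ± 0.08 in MDA-MB-231 (-0.67, limma adjusted p = 0.000968). ILMN_1702237 averaged 7.31 ± 0.25 in BT-549 and 7.77 ± 0.05 in MDA-MB-231 (-0.47, limma adjusted p = 0.0202). The last lost its call without MDA-MB-231 DMSO replicate 3 or BT-549 DMSO replicate 1 or 2 (log2 difference -0.58 to -0.33 over the 12 fits, adjusted p up to 0.0699).

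The brightest FKBP1A probe again stood apart from ILMN_2333367. It averaged 10.75 ± 0.44 in BT-549 and 10.71 ± 0.13 in MDA-MB-231 under DMSO (log2 difference 0.04, limma adjusted p = 0.915). Its gaps to ILMN_1683969 (0.87, adjusted p = 0.0718) and ILMN_1702237 (0.51, adjusted p = 0.0882) were not called. Its gap to ILMN_2333367 was called, at 0.71 (adjusted p = 0.0437, with 13.9% of all probe pairs called). The gap between the FKBP14 probes was also called, with the opposite sign to that under everolimus in BT-549 (-0.59, adjusted p = 0.0432). FKBP2, FKBP3, FKBP4, FKBP8 and FKBP9 had no called probe between the lines, nor had either FKBP14 probe on its own (brighter -0.58, adjusted p = 0.0773, and dimmer 0.01, adjusted p = 0.984).

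Ordered over the 4 groups, FKBP1A by ILMN_2333367 was highest in MDA-MB-231 with everolimus (9.70), then in MDA-MB-231 with DMSO (9.44), BT-549 with DMSO (8.76) and BT-549 with everolimus (7.71), with no overlap between any neighbours. FKBP5 ran from MDA-MB-231 with everolimus (8.75) and with DMSO (8.68), whose arrays overlapped, to BT-549 with everolimus (8.05) and with DMSO (7.74), which did not. For both FKBP3 probes the BT-549 everolimus group was lowest and apart from the other 3 groups, each of which overlapped the next. For FKBP4 the MDA-MB-231 everolimus group was lowest and apart (8.26), while each of the other 3 (8.56 to 8.69) overlapped the next. The 4 groups of FKBP8, of FKBP9 and of the brightest FKBP1A probe overlapped from each to the next.

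The effects of everolimus differed between the lines for 3 of the 16 probes, each lower in BT-549, against 0.770% of all 15583 probes called in that test and 0.475% called lower. The difference of effects, BT-549 minus MDA-MB-231, was -1.32 for FKBP1A by ILMN_2333367 (95% interval -1.66 to -0.98, limma adjusted p = 0.0181). It was -1.16 for FKBP1A by ILMN_1683969 (-1.65 to -0.67, adjusted p = 0.043) and -0.76 for FKBP2 by ILMN_1674337 (-1.06 to -0.47, adjusted p = 0.0387). These probes were lower with everolimus in BT-549 and read higher, without being called, in MDA-MB-231. For FKBP3 the difference of effects was not called (-0.54 and -0.56, adjusted p = 0.304 and 0.156), so its fall is not shown to be specific to BT-549.

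These 3 calls lie near the threshold and single arrays end them. ILMN_2333367 stayed called in 8 of 12 fits that left out 1 array, and not without MDA-MB-231 DMSO replicate 2 or 3, MDA-MB-231 everolimus replicate 2 or BT-549 DMSO replicate 2 (log2 -1.41 to -1.24, adjusted p up to 0.0825). FKBP2 stayed called in 4 of 12, those without MDA-MB-231 DMSO replicate 1, MDA-MB-231 everolimus replicate 1, BT-549 DMSO replicate 3 or BT-549 everolimus replicate 1 (-0.83 to -0.69, adjusted p up to 0.119). ILMN_1683969 stayed called in 3 of 12, those without MDA-MB-231 DMSO replicate 1, BT-549 DMSO replicate 3 or BT-549 everolimus replicate 1 (-1.28 to -1.02, adjusted p up to 0.137).

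Genes that work beside the FKBPs were counted in 7 lists with 78 genes above the floor, each gene by its brightest probe. In MDA-MB-231 limma called 0 of 78, with 6 at an unadjusted p under 0.05 and 0.111% of all 11764 genes called. In BT-549 it called 13, 11 lower and 2 higher, against 17.1% of all genes called, 7.35% lower and 9.77% higher.

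The cyclophilins and parvulins, which catalyse the same turn of proline bonds with an unrelated fold, had 5 of 16 genes lower in BT-549 with everolimus and 0 higher, with a median log2 difference of -0.23 against 0.04 over all genes. PPIB, cyclophilin B of the endoplasmic reticulum, fell by 1.36 (adjusted p = 0.00251) and PPIC, which shares its compartment, fell by 0.86 (adjusted p = 0.00731). CWC27 fell by 1.06 (adjusted p = 0.0132) and PPIL1 fell by 0.76 (adjusted p = 0.0173), both cyclophilins of the spliceosome. PPIA, the abundant cytosolic cyclophilin A, differed by -0.54 without a call (adjusted p = 0.0697).

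The genes for collagen folding in the endoplasmic reticulum had 4 of 14 lower and 0 higher in BT-549, with a median of -0.40. P4HA1, a subunit of prolyl 4-hydroxylase, fell by 1.48 (adjusted p = 0.00181), and PLOD1, a lysyl hydroxylase, fell by 1.27 (adjusted p = 0.0074). SERPINH1, the collagen chaperone HSP47, fell by 1.00 (adjusted p = 0.00852). CRTAP, of the prolyl 3-hydroxylase complex that also holds PPIB, fell by 1.58 by its brightest probe (adjusted p = 0.0336), though its other probe differed by -0.38 without a call (adjusted p = 0.303).

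Each of the remaining lists held at most 1 called gene in BT-549. Among 15 genes of complexes that FKBP12 binds, MLST8, a subunit of both mTOR complexes, rose by 0.58 in BT-549 (adjusted p = 0.0192), while MTOR differed by 0.04 (adjusted p = 0.943). Of 13 HSP90 genes and co-chaperones only PTGES3, the co-chaperone p23, was called in BT-549, lower by a log2 difference of -0.81 (adjusted p = 0.00313). Of 11 genes of the glucocorticoid receptor and its targets, only the kinase SGK1 was called, and it rose by 1.33 (adjusted p = 0.0012). Its 2 other probes gave 1.08 (adjusted p = 0.0101) and 0.81 (adjusted p = 0.0822).

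The medians of the glucocorticoid receptor list were 0.25 in BT-549 and 0.40 in MDA-MB-231, against 0.04 and -0.01 over all genes. Among 6 partners of FKBP8, EGLN1, the oxygen sensor PHD2, fell by 1.06 in BT-549 (adjusted p = 0.000826). The other FKBP domain genes with a probe above the floor, FKBP11, FKBP15 and FKBPL, were not called in either line, with log2 differences of -0.14, 0.31 and 0.03 in BT-549 and -0.10, 0.13 and -0.16 in MDA-MB-231.

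**Figure D4:**
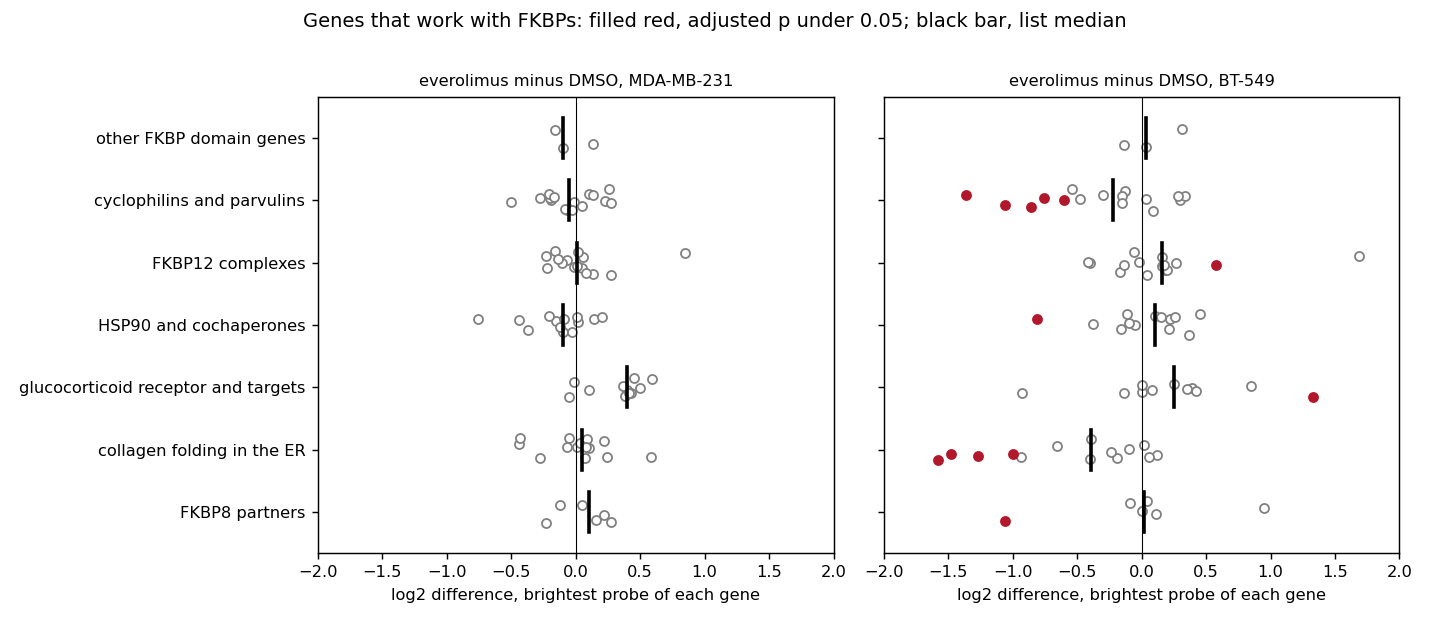
Log2 differences, everolimus minus DMSO, of the genes above the floor in 7 lists of FKBP partners and relatives, each gene by its brightest probe and each line in its own panel. Called genes are marked: 0 of 78 in MDA-MB-231, and 13 of 78 in BT-549, of which 11 lie below 0.

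The genes whose pattern over the 12 arrays was most like that of FKBP1A and FKBP5 were found among 11763 other genes by the root-mean-square difference after each probe's own mean was subtracted. For the brightest FKBP1A probe they were ICAM3 (0.151), PLOD2 (0.157) and TCF19 (0.158), against a median of 0.396 over all genes. For FKBP5 they were LTO1 (0.0915), VDAC2 (0.117) and EEF1B2 (0.127), against a median of 0.504. These 3 genes, like FKBP5, were lower in BT-549 under DMSO (log2 differences -0.88, -0.96 and -0.86), and they differed by 0.34, 0.34 and 0.37 with everolimus in BT-549. The genes were chosen on these same 12 arrays, so their sharing the differences of FKBP5 follows from the choice. The values are given as a description without a test.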

How the data were processed

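Per the labels' protocols, total RNA was prepared with a mirVana kit, complementary RNA was made with a TotalPrep kit, and streptavidin-Cy3 stained the Illumina bead arrays. The authors deposited log2 values of 47230 probes. The log base was read from the values, as 2 raised to the highest value (14.56) is 24154, within a scanner's range. Sorted columns of the deposited log2 values differ by at most 0.01, as quantile normalization gives. The upstream software, like any background treatment or filter, was not given in the sources used here. A second table of unnormalized intensity has 12 columns whose names match no label and were not used. Depth has no counterpart here: 3 arrays in each group limit the precision. No 2 arrays were identical.

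The floor on dim probes was 6.77, the background peak (6.55) plus 3 SDs (0.0724) of the values below it, on at least 3 of 12 arrays. Group means of all 12 arrays were fitted with limma 3.58.1 (R 4.3.3), 2-sided, with the Benjamini-Hochberg adjustment over the 15583 probes with 1 symbol above the floor. The script was tested on simulated data, and Python 3.11.15 made tables and figures. A fold against a group wholly below the floor is a bound, with values under the floor set to it. Every member probe is named whatever its result, and up to 4 called genes of a list by smallest p. PPIA, MTOR and the 3 FKBP relatives are outside that rule and were named after their values were seen or as fixed points. Members and lists were chosen with earlier results of these data known.

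Same-numbered arrays of the 2 treatments deviated from their group means together in MDA-MB-231 (r = 0.727, 0.526 and 0.428). Yet everolimus replicate 3 correlated better with DMSO replicate 2 (0.538), and everolimus replicate 2 gave 0.344 with DMSO replicate 3. In BT-549 the same-numbered values were 0.494, 0.0746 and 0.406, and everolimus replicate 2 gave 0.453 with DMSO replicate 3. Replicate 1 arrays stood apart in both lines, as every value between a replicate 1 array and an array of another number was negative. In MDA-MB-231 these values ran from -0.657 to -0.45. For BT-549 the range was -0.488 to -0.0795. The replicate 1 arrays of the 2 treatments thus deviated together in each line. For replicates 2 and 3 the values do not show pairing number by number, and the labels give no pairing. The main fit took no account of pairing or of this shared deviation of replicate 1. Alternatives were the replicate block, each line's own arrays, 1 probe per gene, other floors, all probes, equal medians, a subtracted background with an offset of 50, a trended robust prior, array weights, and arrays left out. Array weights were taken gene by gene after the default method had stopped before it converged, a change made after its output was seen.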

Additional observations from a re-analysis of the deposited data

Results flagged for a closer look

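Effects of everolimus differed between the lines for 3 of the 16 FKBP probes by limma's test of the difference itself. The difference of effects, BT-549 minus MDA-MB-231, was -1.16 for FKBP1A by probe ILMN_1683969, -1.32 for FKBP1A by ILMN_2333367 and -0.76 for FKBP2 by ILMN_1674337. The adjusted p-values were 0.043, 0.0181 and 0.0387, and 0.770% of all probes were called in that test. Everolimus arrays lay below all DMSO arrays in BT-549 for the 3 probes. In MDA-MB-231 the everolimus arrays lay above all DMSO arrays for ILMN_2333367 only. Both FKBP1A probes are annotated to the same transcript and are not independent readings. The brightest FKBP1A probe showed no called difference of effects (-0.37, adjusted p = 0.585), nor did ILMN_1702237 (-0.20, adjusted p = 0.62). The dim FKBP2 probes ILMN_1807563 (-0.21, adjusted p = 0.631) and ILMN_1678080 (0.07, adjusted p = 0.883) were not called either. With 1 array left out, ILMN_2333367 kept its call in 8 of 12 fits, ILMN_1674337 in 4 and ILMN_1683969 in 3.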

How the results depend on the processing

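Over 64 combinations of FKBP probe and comparison, 652 alternative fits gave 624 on the same side of the threshold with the same direction, 7 that lost a call, 21 that gained one and 0 with a called value of the opposite sign. The block, each line's own arrays, 1 probe per gene, the floors, all probes and the trended prior leave a probe's log2 difference unchanged. Only p-values could move under those settings, so no sign could turn there. In BT-549 the count of 6 called probes was 2 with 1 probe per gene and 4 to 7 with 1 array left out. The replicate block gave 7 there and left 0 in MDA-MB-231, while all probes called went to 4447 in BT-549 against 2656 without it, and to 178 against 16 in MDA-MB-231. With the block FKBP5 was called in BT-549 (0.32, adjusted p = 0.0496), as was the gap of 0.55 between the brightest FKBP1A probe and ILMN_1683969 (95% interval 0.23 to 0.87, adjusted p = 0.0185), with 29.3% of all probe pairs called. The block changed no FKBP call in MDA-MB-231. In MDA-MB-231 the count of 0 became 2, FKBP4 and the dimmer FKBP14 probe, both lower, with array weights, which ran from 0.161 to 7 and raised all calls to 1261, and it was 0 to 0 with 1 array left out. The 3 probes with a difference of effects became 1 with 1 probe per gene, with the background subtracted and with the trended robust prior, 8 with array weights, 6 without the 4 replicate 1 arrays, and 0 to 4 with 1 array left out. The share of all probes called in that test was 30.4% with array weights, 20.4% without the replicate 1 arrays and 0.00% to 10.8% with 1 array left out, against 0.770%. The FKBP count was 0 without MDA-MB-231 DMSO replicate 2 or 3, without MDA-MB-231 everolimus replicate 2 and without BT-549 DMSO replicate 2, fits in which 0 to 2 of all probes were called. Between the lines under DMSO the count of 5 became 2 with 1 probe per gene and 4 to 5 with 1 array left out. Of the 78 list genes, 26 were called in BT-549 with the block, 30 without the replicate 1 arrays and 9 to 18 with 1 array left out, against 13. All probes called made up 28.5%, 38.1% and 6.99% to 27.8% under these settings, so the list counts moved with the background. In MDA-MB-231 the list count was 3 without the replicate 1 arrays, where 6.26% of all probes were called, and 0 to 0 with 1 array left out, against 0. Why the counts moved was not tested, except that 1 probe per gene leaves 9 probes to count. Probes near the floor, such as those of FKBP9, limit what can be seen of those genes.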
